A study of Mus musculus with 6 samples.

Results

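The transcripts of 9 genes of transforming growth factor beta (TGF-beta) signalling were read in WT and Rnf20 knockout cells: the ligands Tgfb1, Tgfb2, Tgfb3 and Inhba, the receptors Tgfbr1, Tgfbr2 and Tgfbr3, and the feedback inhibitors and target genes Skil and Smad7. They were found by symbol among the 16982 genes of the count table, and all 9 were among the 13386 genes that passed the filter on low counts. The data came from poly(A) RNA-seq of reprogrammable cells, which are mouse embryonic fibroblasts (MEF) infected with retroviruses that carry OCT4, SOX2, C-MYC and KLF4, harvested on day 3. Where 3 values are given for a genotype they stand in the order of replicates 1, 2 and 3. There were 3 libraries of each of 2 genotypes, wild type (WT) and Rnf20-/- (knockout, KO), all on a C57BL/6 background and all labelled untreated. Per the methods of the study, knockout cells came from Rnf20 Flox/Flox; Tamoxifen-cre mice, in which a ubiquitously expressed Cre recombinase is switched on by 4-OH tamoxifen, and infected cells were replated on MEF feeder layers treated with mitomycin-C. The sources used here do not state whether the WT cultures carried Cre or received the drug, whether the harvested RNA held feeder cells, or whether each library was a separate embryo or culture, so p-values measure the spread between these libraries.

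TGF-beta ligands are secreted as latent dimers and, once released, bind the kinase receptor TGFBR2, which recruits and phosphorylates TGFBR1. TGFBR1 phosphorylates SMAD2 and SMAD3, which join SMAD4 and regulate genes in the nucleus, and activin A, a dimer of the product of Inhba, reaches the same SMADs through other receptors. In fibroblasts the pathway is known for matrix production, contractile genes and growth arrest, and in reprogramming it is known to oppose the mesenchymal-to-epithelial transition (MET).

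Libraries held 20545442 to 21746898 counts. Rnf20 fell to 16.8% of the WT mean in CPM (counts scaled to a fixed library total, here with the TMM factors of edgeR), from 106 to 107 in the WT libraries to 16.4 to 18.7 in the knockout libraries. Rnf40, whose product pairs with RNF20, had a log2 fold change of -0.02 (adjusted p = 0.889, edgeR quasi-likelihood test). Knockout replicate 3 stood apart: the chi-square statistic of its counts against the other knockout libraries was 92.4 and 101 per gene, against 6.04 to 8.92 for every other pair of the same genotype. Knockout replicates 1 and 3 had 0 counts of the Y-linked Ddx3y, where the other 4 libraries had 1990 to 2686. The 9 fibroblast markers, each over 3 counts in at least 1 library, had a summed level of 14946 to 16462 TPM (counts divided by gene length and scaled to the same total in each library) in WT and 10406 to 18352 in knockout libraries, most of it from collagen genes. Of these 9 markers Thy1 and Pdgfra fell (log2 fold changes -1.11 and -1.22, adjusted p = 0.00251 and 0.0185, edgeR quasi-likelihood test), and Lum was lower in every knockout library without passing (-1.13, adjusted p = 0.119). Vim was higher in every knockout library, also without passing (0.29, adjusted p = 0.0577, same test). The libraries of the remaining markers overlapped between genotypes. The part of these differences in the values of the 9 TGF-beta genes was not tested. The 8 macrophage markers, likewise, summed to 86.8 to 181 TPM in WT, 150 and 86 in knockout replicates 1 and 2, and 373 in knockout replicate 3. The 7 epithelial markers summed to 57.9 to 62.5 TPM in WT and 41.4, 28.6 and 4.07 in knockout replicates 1 to 3. Of the 5 tested, 4 were lower in every knockout library, but only Cldn3 passed (log2 fold change -2.16, adjusted p = 0.00614, edgeR quasi-likelihood test). The Cdh1 libraries overlapped between genotypes, with the highest value in knockout replicate 1 (13.4 CPM). Cldn4, below the filter, had 3 counts in each WT library and 12, 12 and 5 in the knockout libraries. Of the 6 endothelial markers Emcn was at 3 counts or fewer in every library, and the sum was 17.1 to 39.3 TPM. Tek held 30.8 to 64.5 CPM and Kdr at most 1.77 CPM, while Pecam1, Cdh5, Tie1 and Emcn were below the filter on low counts. Of the 6 pluripotency markers 4 were in the count table, with a sum of at most 2.78 TPM and with Esrrb, Utf1 and Zfp42 at 3 counts or fewer in every library.

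Inhba and Smad7 rose in Rnf20 knockout cells and Tgfbr3 fell, while the other 6 genes did not pass the test. Inhba rose 3.78-fold (95% interval 2.03 to 7.04), Smad7 rose 1.56-fold (1.33 to 1.84) and Tgfbr3 fell to 0.666 of its WT level (0.556 to 0.799). The test was the edgeR quasi-likelihood test fitted on all genes, and a gene passed at an adjusted p under 0.05. Of the 13386 genes tested, 16.4% rose and 16.6% fell by the same rule, so 2 of 9 higher and 1 of 9 lower lie near that background. The median log2 fold change was 0.14 over the 9 genes and -0.00032 over all genes. Libraries of the genotypes did not overlap for 5 of the 9 genes, against 54.8% of all genes. No member met the thresholds of the study (adjusted p under 0.01, a log2 fold change beyond 1 in either direction and a mean FPKM over 1), which 3.59% of all genes met. That count of 0 is from the edgeR quasi-likelihood test, in which 4 members had an unadjusted p under 0.05, and DESeq2 gave 1, Inhba. The adjusted p-values and fold changes of the authors were not used, so whether the study itself called a member was not checked. In these bulk cultures, less RNA per cell and fewer cells of a type cannot be told apart.

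**Figure D1:**
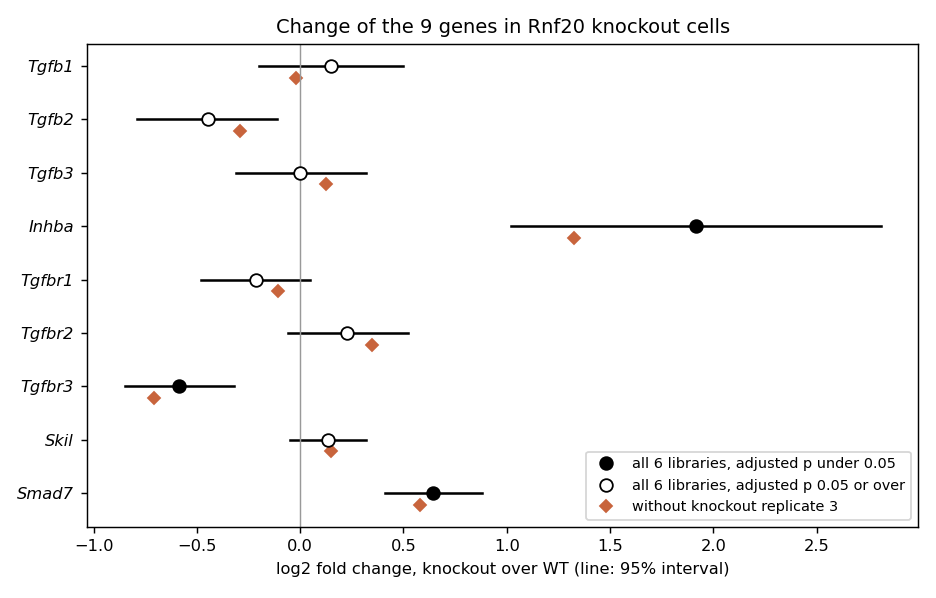
Log2 fold change of each of the 9 genes in knockout over WT cells (x axis), with circles for the fit on all 6 libraries, filled where the adjusted p was under 0.05, lines for the 95% interval and diamonds for the fit without knockout replicate 3. Inhba lay farthest from 0 at 1.92, Smad7 at 0.64 and Tgfbr3 at -0.59, and the Inhba value was 1.33 without knockout replicate 3.

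Inhba encodes the beta-A subunit that forms activin A. It lies on chromosome 13 of GRCm38 (16011851 to 16031621, plus strand). It held 46.5, 41.5 and 42.9 CPM in the 3 WT libraries and 113, 106 and 277 CPM in the 3 knockout libraries. Every knockout library lay above every WT library, and knockout replicate 3 lay at 2.61 times the lowest knockout library. This was a log2 fold change of 1.92 with a standard error of 0.377, at an adjusted p of 0.0125 in the edgeR quasi-likelihood test. Larger absolute changes were found for 3.18% of all genes. Without knockout replicate 3 the log2 fold change was 1.33 (adjusted p = 9.2e-07), and the call was lost without WT replicate 1, 2 or 3, with adjusted p-values of 0.0502, 0.06 and 0.0621. The log2 fold changes without these WT libraries were 1.96, 1.88 and 1.90. Of all genes 14.3%, 11.9% and 10.3% passed in these fits, against 33.0% with all libraries. The Inhba call was also lost with a term for the libraries without Ddx3y counts (log2 fold change 1.28). In that fit the genotype effect rests on knockout replicate 2 against the WT libraries, as no other knockout library had Ddx3y counts. With 1 such library the lost call cannot be read as an adjustment for Ddx3y status. Knockout replicate 2, which like the WT libraries had Ddx3y counts, held 106 CPM, also above all WT libraries. Of the 8 macrophage markers 6 were also highest in knockout replicate 3, foremost Lyz2 (159 CPM) and Adgre1 (31.9 CPM), while Cd68 was highest in WT replicate 2 and C1qa was lowest in knockout replicate 3. Their part in the Inhba value of that library was not tested.

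Tgfb2, one of the 3 TGF-beta ligands, lies on chromosome 1 (186622792 to 186705989, minus strand). It held 88.7, 92.2 and 87.9 CPM in the 3 WT libraries and 72.2, 73.9 and 51.2 CPM in the 3 knockout libraries. The knockout values were all under the WT values, with the lowest value in knockout replicate 3. The log2 fold change was -0.45 (95% interval -0.79 to -0.11), and the adjusted p of 0.0523 from the edgeR quasi-likelihood test missed the threshold. Without knockout replicate 3 the change was smaller but passed, at -0.29 (adjusted p = 0.00224), and DESeq2 gave an adjusted p of 0.0222 on all 6 libraries. Exons of Gm29491 on the other strand overlap those of Tgfb2, and the sources do not state whether reads were counted by strand.

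Tgfb1, the ligand made by most cell types, lies on chromosome 7 (25687002 to 25705077, plus strand). Its libraries overlapped between genotypes, at 35.9, 32.7 and 35.3 CPM in the 3 WT libraries and 31.6, 36.6 and 47 CPM in the 3 knockout libraries. Knockout replicate 1 held the lowest and knockout replicate 3 the highest value of all 6. The 95% interval of its log2 fold change ran from -0.20 to 0.50. Tgfb3, which in WT cells had the highest level of the ligands, lies on chromosome 12 (86056745 to 86079041, minus strand). It held 137, 115 and 121 CPM in the 3 WT libraries and 139, 133 and 102 CPM in the 3 knockout libraries. Here too the libraries overlapped, with the highest value in knockout replicate 1, the lowest in knockout replicate 3, and a 95% interval of the log2 fold change from -0.31 to 0.32. Exons of Gm37804 and Gm48008 on the other strand overlap those of Tgfb3.

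The promoter windows of Inhba, which rose, Tgfb2, whose libraries did not overlap downward, and Tgfb1, whose libraries overlapped, are given to show how the starts of these ligand genes differ. Each window runs 5′ to 3′ along the strand of its gene, from 250 bases before to 50 bases after the RefSeq start on GRCm38.p6, and capitals mark the motifs found on either strand.
Inhba, chr13:16011601-16011900, plus strand: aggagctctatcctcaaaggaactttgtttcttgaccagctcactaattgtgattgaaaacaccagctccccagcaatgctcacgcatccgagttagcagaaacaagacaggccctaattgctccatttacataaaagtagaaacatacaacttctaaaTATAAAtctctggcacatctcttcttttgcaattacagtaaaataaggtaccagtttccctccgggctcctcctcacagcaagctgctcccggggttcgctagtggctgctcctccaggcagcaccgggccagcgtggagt
Tgfb2, chr1:186705940-186706239, minus strand: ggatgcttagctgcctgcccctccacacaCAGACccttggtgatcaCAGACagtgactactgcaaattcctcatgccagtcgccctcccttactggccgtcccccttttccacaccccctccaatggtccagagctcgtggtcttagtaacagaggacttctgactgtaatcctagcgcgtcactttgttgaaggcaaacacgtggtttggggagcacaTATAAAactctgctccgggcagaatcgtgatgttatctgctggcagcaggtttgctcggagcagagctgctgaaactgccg
Tgfb1, chr7:25686752-25687051, plus strand: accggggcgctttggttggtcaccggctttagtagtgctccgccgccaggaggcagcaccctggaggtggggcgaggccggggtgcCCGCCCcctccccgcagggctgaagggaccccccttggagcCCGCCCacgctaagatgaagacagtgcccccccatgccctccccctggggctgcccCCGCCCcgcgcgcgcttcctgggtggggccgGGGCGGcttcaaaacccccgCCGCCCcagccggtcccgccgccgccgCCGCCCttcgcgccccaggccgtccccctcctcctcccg

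Tgfb1 had 6 matches of the GC box GGGCGG, counted on both strands, in a window of 77% G and C. Tgfb2 had 1 TATA box TATAAA starting 31 bases upstream (position -31) and 2 matches of CAGAC, the short element that SMAD proteins bind, at -221 and -204. Inhba had 1 TATAAA at -91, no GC box and no CAGAC, in a window of 47.7% G and C. Of 32851 promoter windows of this length, 49.6% held CAGAC, 35.7% GGGCGG and 13.6% TATAAA, on either strand. The palindromic SMAD element GTCTAGAC (0.213% of all windows) and the AP-1 element TGANTCA (7.81%) were also searched, and the letters of no motif are contained in those of another. Windows were at hand for 5 of the 9 genes, and these also include Tgfbr2, with 1 CAGAC at -160, and Tgfbr1, whose first window held 2 GC boxes and whose second held 1 CAGAC. These are matches of letters and not measured binding.

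Tgfbr3 encodes betaglycan, a co-receptor without kinase activity that presents ligand, TGF-beta 2 above all, to TGFBR2. It lies on chromosome 5 (107106570 to 107289629, minus strand), and exons of Gm43422 on the same strand overlap its own. It held 73, 79.1 and 75.5 CPM in the 3 WT libraries and 47, 46 and 58.7 CPM in the 3 knockout libraries. No knockout value reached the WT range, and knockout replicate 3 was the nearest to WT. This was a log2 fold change of -0.59 with a standard error of 0.11, at an adjusted p of 0.011 in the edgeR quasi-likelihood test. It was -0.71 without knockout replicate 3 (adjusted p = 1.85e-05), and the call was lost without WT replicate 2 (adjusted p = 0.0522) or WT replicate 3 (adjusted p = 0.0513). Without these WT libraries 11.9% and 10.3% of all genes passed, against 33.0% with all libraries. The Tgfbr3 call was also lost with the Ddx3y term (log2 fold change -0.72), where the genotype effect rests on knockout replicate 2.

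Tgfbr1, the type I kinase, lies on chromosome 4 (47353222 to 47414931, plus strand). It held 92.8, 99.3 and 88.7 CPM in the 3 WT libraries and 88.1, 85.3 and 68.4 CPM in the 3 knockout libraries. The genotypes did not overlap, but only just, and the adjusted p was 0.176 with a 95% interval of the log2 fold change from -0.48 to 0.05 (edgeR quasi-likelihood test). Tgfbr2, the type II kinase that binds the ligand, lies on chromosome 9 (116084293 to 116175360, minus strand). It held 281, 299 and 296 CPM in the 3 WT libraries and 354, 388 and 282 CPM in the 3 knockout libraries. Knockout replicates 1 and 2 lay above all WT libraries and knockout replicate 3 lay within them. With all libraries the adjusted p was 0.191, and without knockout replicate 3 it was 0.000759, with a log2 fold change of 0.35 (edgeR quasi-likelihood test).

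Smad7 encodes an inhibitory SMAD that blocks the receptor and is induced by the pathway itself. It lies on chromosome 18 (75367529 to 75395935, plus strand). It held 28, 26.8 and 27.4 CPM in the 3 WT libraries and 44.3, 37.5 and 46.5 CPM in the 3 knockout libraries. All knockout libraries lay above all WT libraries. This was a log2 fold change of 0.64 with a standard error of 0.099, at an adjusted p of 0.0067 in the edgeR quasi-likelihood test, and 24% of all genes had a larger absolute change. The call held without each library in turn, with adjusted p-values of 0.000381 to 0.0412 and log2 fold changes of 0.58 to 0.73. The call was lost with the Ddx3y term (log2 fold change 0.45), where the genotype effect rests on knockout replicate 2. Skil encodes SnoN, a nuclear repressor of SMAD complexes that is also a target of the pathway. It lies on chromosome 3 (31095058 to 31122577, plus strand). It held 72.6, 79.6 and 70.5 CPM in the 3 WT libraries and 85.7, 78.5 and 80.4 CPM in the 3 knockout libraries. Its libraries overlapped, with an adjusted p of 0.218 and a 95% interval of the log2 fold change from -0.05 to 0.32 (edgeR quasi-likelihood test). The change in Smad7 was not tested against that in Skil.

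**Figure D2:**
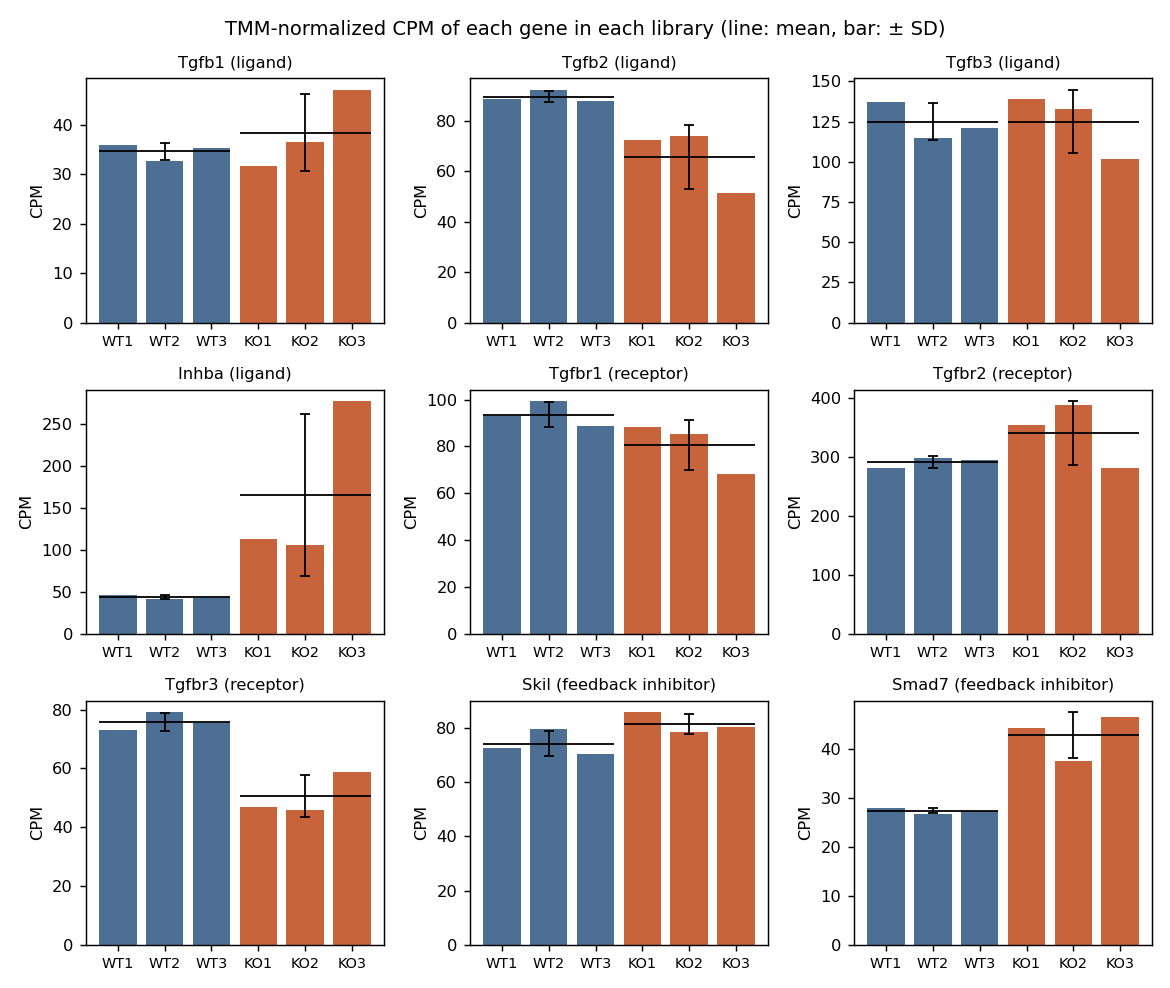
TMM-normalized CPM (y axes, each from 0) of the 9 genes in WT replicates 1 to 3 (blue) and knockout replicates 1 to 3 (orange), with a horizontal line at the mean and a vertical bar of ± SD for each genotype (n = 3). Inhba ranged from 41.5 to 46.5 CPM in WT and from 106 to 277 in knockout libraries, and Smad7 from 26.8 to 28 and from 37.5 to 46.5.

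The knockout libraries varied more than the WT libraries. The coefficient of variation of CPM was larger in knockout for 8 of the 9 genes, Skil being the other one. For Inhba it was 58.5% in knockout and 5.93% in WT (n = 3 each), and for Tgfb2 19.3% and 2.57%. Knockout replicate 3 held the highest or the lowest of the 6 values for 6 of the 9 genes. These counts were not set against the share over all genes. Knockout replicate 3 also stood apart over all genes (chi-square 92.4 and 101 per gene), so the counts describe the libraries rather than these 9 genes.

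Levels between genes were compared in TPM. In WT cells Tgfb3 (97.6 ± 10.2, mean ± SD, n = 3) and Tgfbr2 (90.6 ± 1.94) were highest and did not differ beyond their spread in this measure. Tgfb2 (45.6 ± 1.11), Tgfb1 (42.1 ± 2.44) and Tgfbr1 (41.6 ± 2.37) followed, the last 2 with overlapping libraries, and then Tgfbr3 (33 ± 1.05), Skil (29.3 ± 1.78), Inhba (18 ± 1.28) and Smad7 (15.5 ± 0.486), each apart from the next. In knockout cells the order was Tgfbr2 (105 ± 21.3), Tgfb3 (97 ± 20), Inhba (66.1 ± 34.8), Tgfb1 (45.9 ± 6.84), Tgfbr1 (35.6 ± 6.46), Tgfb2 (33.3 ± 7.92), Skil (31.8 ± 2.71), Smad7 (23.9 ± 2.25) and Tgfbr3 (21.6 ± 1.85). All neighbours in the knockout order overlapped but Skil and Smad7. Inhba thus stood in place 8 of 9 in WT and place 3 in knockout cells, and Tgfbr3 in places 6 and 9. These levels rest on the gene lengths in the files, which for Tgfb1 (2175 bases) and Skil (6717) are shorter than the merged GENCODE exons of 5042 and 9694 bases. In the FPKM values of the authors, Tgfbr2 (59.2, 64.2 and 63.6) lay above Tgfb3 (38.4, 32.3 and 34.3) in the 3 WT libraries. There Tgfbr1 also lay above Tgfb2, and Skil overlapped Tgfbr3, so the WT order depends on the measure.

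The balance among the ligands and among the receptors was read within each library as shares of summed TPM, which do not depend on the scaling between libraries. The sum of the 3 TGF-beta ligands was 185 ± 12.3 TPM in WT and 176 ± 21.3 in knockout cells, and that of the 3 receptors 165 ± 4.37 and 163 ± 25.6 (mean ± SD, n = 3). The Tgfb2 share of the ligands was 23%, 26.6% and 24.5% in the 3 WT libraries and 20%, 20.2% and 15.9% in the 3 knockout libraries. Every knockout library thus had a lower Tgfb2 share than every WT library, with a mean difference of -5.97 percentage points (exact permutation p = 0.1, two-sided, the smallest that 3 against 3 can give). The Tgfb1 share overlapped between genotypes (22.8% ± 0.674 and 26.6% ± 7.44), as did the Tgfb3 share (52.6% ± 1.98 and 54.7% ± 5.15).

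Among the receptors the Tgfbr2 share was 54.4%, 54.1% and 55.9% in the 3 WT libraries and 64.9%, 67.5% and 61% in the 3 knockout libraries. All knockout libraries lay above WT, by 9.61 percentage points on average (exact permutation p = 0.1, two-sided, the smallest possible). The Tgfbr3 share was 20% ± 0.139 in WT and 12%, 11.2% and 17.8% in knockout replicates 1 to 3, and that of Tgfbr1 25.2% ± 0.996 in WT and 23.1%, 21.3% and 21.2% in knockout replicates 1 to 3 (n = 3 each). Both were lower in every knockout library. With 7 such measures the adjusted p could not fall below 0.1.

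**Figure D3:**
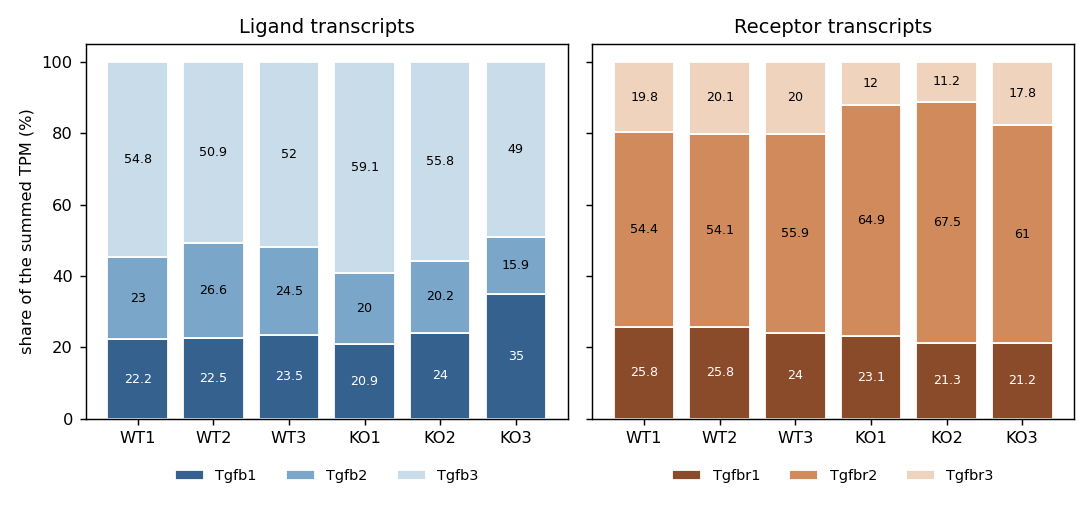
Share of each TGF-beta ligand transcript (left) and receptor transcript (right) in the summed TPM of the 3 genes (y axis, percent) in each WT and knockout (KO) library. Tgfbr2 made up 54.1% to 55.9% of the receptor transcripts in WT and 61% to 67.5% in knockout libraries, and Tgfb1 reached 35% of the ligand transcripts in knockout replicate 3.

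The other genes of the pathway were taken from 6 lists of 88 genes, of which 80 were tested. In all, 28 rose and 8 fell (adjusted p under 0.05, edgeR quasi-likelihood test), with a median log2 fold change of 0.21. This was 45% of those tested, against 33.0% of all genes. Without knockout replicate 3, 37 rose and 16 fell, in a fit in which 48.1% of all genes passed against 33.0% with all libraries.

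In the list of activin-related ligands and antagonists 5 of the 8 genes tested rose and 1 fell (75% passed, against 33.0% of all genes). Fst encodes follistatin, which binds activin and keeps it from its receptors. Fst held 41.9, 37.5 and 35 CPM in the 3 WT libraries and 86.8, 68.8 and 126 CPM in the 3 knockout libraries, a log2 fold change of 1.30 (adjusted p = 0.00817). Fstl3, a related secreted antagonist, rose by 1.24 on the log2 scale (adjusted p = 0.0176), from 3.1 ± 0.591 to 7.35 ± 2.29 CPM. Inhbb, the beta-B activin subunit, rose by 1.15 (adjusted p = 0.00999), from 28.4 ± 0.502 to 63 ± 19.5 CPM. Gdf15, a distant stress-induced relative, rose by 1.23 (adjusted p = 0.00358). Lefty1, an antagonist of Nodal, fell to low counts, from 3.83 ± 0.143 to 1.54 ± 0.823 CPM (log2 fold change -1.31, adjusted p = 0.0386, all from the edgeR quasi-likelihood test).

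Both the activin subunit genes and their antagonists were thus higher in every knockout library. The log2 ratio of Inhba to Fst in TPM was -0.688, -0.694 and -0.545 in the 3 WT libraries and -0.462, -0.219 and 0.296 in the 3 knockout libraries. It was higher in all knockout libraries, by 0.514 on average (exact permutation p = 0.1, two-sided, the smallest possible), and by 0.302 without knockout replicate 3. With the FPKM values of the authors the difference was 0.328 (exact permutation p = 0.2, two-sided).

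**Figure D4:**
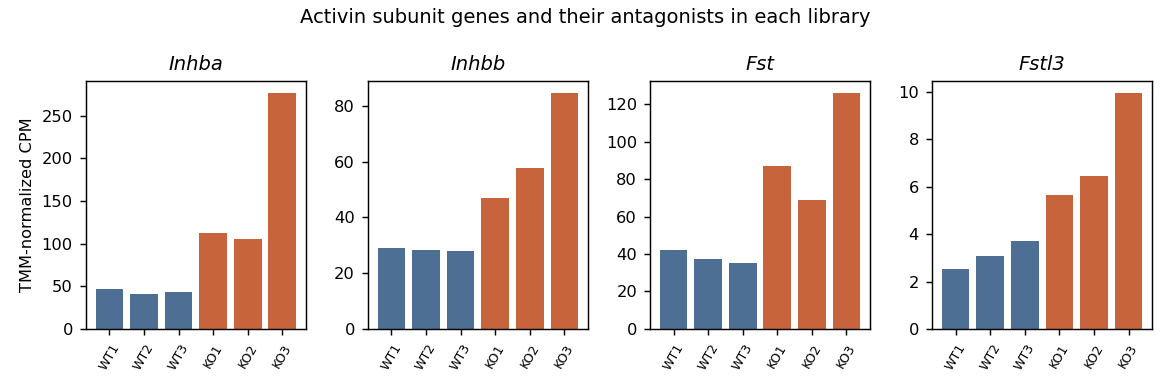
TMM-normalized CPM (y axes, each from 0) of the activin subunit genes Inhba and Inhbb and of the antagonists Fst and Fstl3 in WT (blue) and knockout (KO, orange) replicates 1 to 3. All 4 genes had every knockout library above every WT library and their highest value in knockout replicate 3, which for Fst was 126 CPM.

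Among genes of ligand latency and activation 5 of 16 rose and 1 fell. The 37.5% that passed lie near the 33.0% of all genes. Thbs1 encodes thrombospondin 1, an activator of latent TGF-beta, and rose from 2429 ± 136 to 7246 ± 645 CPM (log2 fold change 1.58, adjusted p = 0.00177). The integrin subunits Itgb1 and Itgav, the latter part of the integrins that release TGF-beta from its latent complex, rose by 0.81 (adjusted p = 0.00279) and 0.67 (adjusted p = 0.006) on the log2 scale. Of the other integrin subunits listed, Itgb5 rose by 0.36 (adjusted p = 0.0177), Itgb3 and Itgb8 did not pass, and Itgb6 was below the filter on low counts. The latent TGF-beta binding proteins, which tether the complex to the matrix, moved apart. Ltbp2, a member that does not bind TGF-beta itself, held 113, 91.3 and 391 CPM in knockout replicates 1 to 3 against 59.2 ± 5.86 in WT (adjusted p = 0.0484). Its log2 fold change was 1.74 with all libraries and 0.79 without knockout replicate 3. Ltbp4 fell from 220 ± 11.2 to 90.3 ± 38.3 CPM (log2 fold change -1.29, adjusted p = 0.025, all from the edgeR quasi-likelihood test). Ltbp1 and Ltbp3, given here to complete the family, had adjusted p-values of 0.681 and 0.489, with overlapping libraries.

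Among other receptors and co-receptors 1 of 8 rose and 1 fell (25% passed, under the 33.0% of all genes). Nrp1, a co-receptor, had a log2 fold change of 0.29 (adjusted p = 0.0379) and Acvr2b, an activin type II receptor, of -0.65 (adjusted p = 0.0102). Of 11 SMADs and nuclear partners none rose and 1 fell (9.09% passed). This was Tgif2, a corepressor of SMADs (log2 fold change -0.64, adjusted p = 0.00546, edgeR quasi-likelihood test). The signal-carrying Smad2, Smad3 and Smad4 had log2 fold changes of 0.13, -0.15 and -0.18 that did not pass.

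Among genes of turnover and adaptors 7 of 13 rose and 1 fell (61.5% passed, against 33.0% of all genes). The risers included the ubiquitin ligases Smurf2 (log2 fold change 0.46, adjusted p = 0.00657), Wwp1 (0.41, adjusted p = 0.00747) and Rnf111 (0.43, adjusted p = 0.0176). Smurf2 and Wwp1 act with SMAD7 on the receptors, and Rnf111, or Arkadia, promotes the loss of SMAD7 and SnoN. Ppm1a, a SMAD phosphatase, rose by 0.33 (adjusted p = 0.0474), and the deubiquitinase gene Usp11 fell from 26.9 ± 0.801 to 7.05 ± 2.15 CPM (log2 fold change -1.93, adjusted p = 0.00358, all from the edgeR quasi-likelihood test). The other deubiquitinase genes listed, Usp4 and Usp15, rose, with log2 fold changes of 0.31 (adjusted p = 0.0156) and 0.27 (adjusted p = 0.0488, same test).

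Of 24 further target genes of TGF-beta, 10 rose and 3 fell, with a median log2 fold change of 0.46 (54.2% passed, against 33.0% of all genes). Ctgf, a matricellular gene that also answers to YAP, rose from 77 ± 4.28 to 255 ± 62.5 CPM (log2 fold change 1.73, adjusted p = 0.00287, edgeR quasi-likelihood test).

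Cdkn1a, which encodes the CDK inhibitor p21 and is also a p53 target, rose from 465 ± 22.8 to 1291 ± 188 CPM (log2 fold change 1.47, adjusted p = 0.00182). Cdkn2b, which encodes the CDK inhibitor p15, rose from 30.3 ± 3.13 to 78.9 ± 21.3 CPM (log2 fold change 1.38, adjusted p = 0.00548). Acta2, the smooth muscle actin of myofibroblasts, and Pmepa1, a feedback inhibitor, were singled out after their values were seen, with log2 fold changes of 1.23 (adjusted p = 0.00394) and 0.89 (adjusted p = 0.00321). Tagln, also a contractile gene, overlapped between genotypes and did not pass (log2 fold change 0.37, adjusted p = 0.22, edgeR quasi-likelihood test). Id2 and Id3, which TGF-beta represses and BMP induces, fell by 0.999 and 0.33 on the log2 scale (adjusted p = 0.0204 and 0.0168), and Tsc22d1 fell by 0.33 (adjusted p = 0.0425, all from the edgeR quasi-likelihood test). Col1a1, Postn and Fn1, which encode matrix proteins and were also picked after their values were seen, did not pass and had log2 fold changes of 0.02, -0.22 and 0.56. Fn1 was nonetheless higher in every knockout library than in every WT library (adjusted p = 0.0697), and the matrix gene Tgfbi was lower in every knockout library (log2 fold change -0.84, adjusted p = 0.142, edgeR quasi-likelihood test). Of the 24 genes, passing or not, 13 were higher in every knockout library and 6 were lower in every one. Over all genes these shares were 26.6% and 28.2%. By library, the median difference from the WT mean over the 24 genes was 0.27, 0.37 and 0.47 on the log2 scale in knockout replicates 1 to 3. The number of genes above the WT mean was 16, 18 and 14, so it was lowest where the median was highest. The lists were chosen with earlier results of these data known, and their counts are descriptions.

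**Figure D5:**
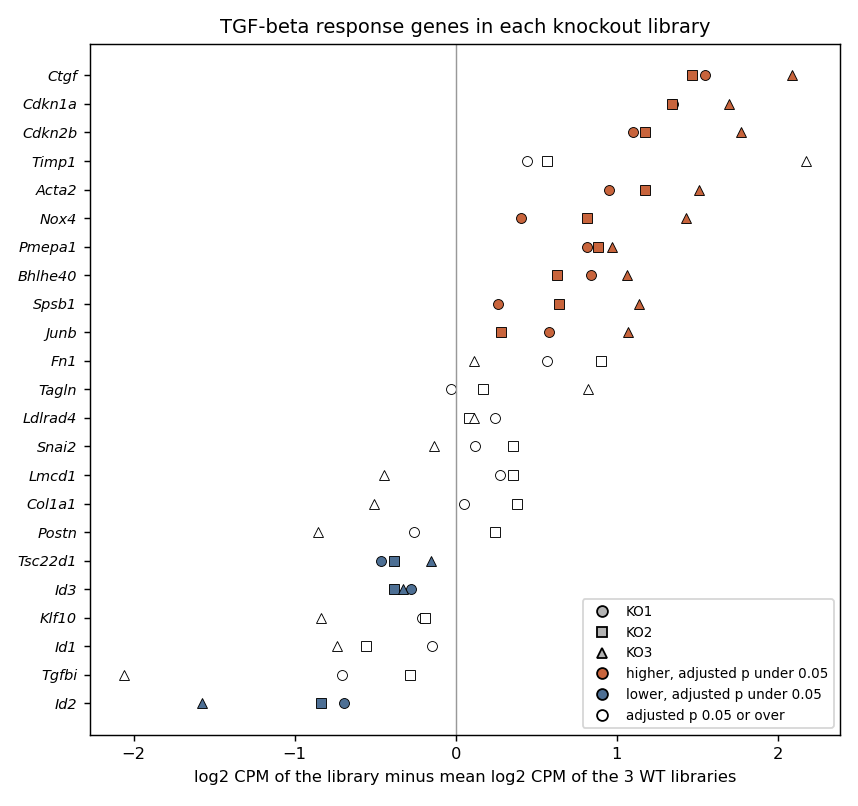
Log2 CPM of each knockout (KO) library minus the mean log2 CPM of the 3 WT libraries (x axis) for the target genes reported here, ordered by fold change, with a symbol for each library and a fill for the direction of genes that passed the test. For Ctgf, Cdkn1a and Cdkn2b all 3 libraries lay above 1, with the highest value in knockout replicate 3.

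Of the 25 genes of the lists named by rule, 12 kept an adjusted p under 0.05 in each fit without 1 library, Thbs1, Itgb1, Itgav, Fst, Gdf15, Tgif2, Smurf2, Wwp1, Usp11, Ctgf, Cdkn1a and Cdkn2b. The other 13 lost it in at least 1 fit, and none changed sign. Ltbp2, Ltbp4 and Fstl3 lost it without each of WT replicates 1, 2 and 3, Inhbb and Acvr2b without WT replicate 3, and Id2 without WT replicate 2 or 3. Nrp1 and Rnf111 lost it without each WT replicate or knockout replicate 2, Lefty1 without each WT replicate or knockout replicate 1, and Ppm1a and Tsc22d1 without each WT replicate or knockout replicate 1 or 2. Id3 lost it without WT replicate 1, WT replicate 3 or knockout replicate 2. Of all genes 10.3% to 14.3% passed without 1 WT library, against 33.0% with all libraries. Without knockout replicate 1 or 2 the shares were 27.7% and 24%.

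For each member the tested gene with the most similar pattern over the 6 libraries was sought, as the smallest root-mean-square difference of log2 CPM after centring each gene on its own mean. It was Tnfsf11 for Inhba (difference 0.0532), with 2.61 to 3.09 CPM in WT and 7.78, 6.55 and 17.9 in knockout replicates 1 to 3. It was Sbf2 for Tgfb2 (0.0214), Fbxl14 for Tgfbr3 (0.0478), Dap for Smad7 (0.0395) and Agpat5 for Skil (0.0174). For Tgfb1 it was Rpap2 (0.0453), for Tgfb3 Zfp703 (0.0352), for Tgfbr1 Rbm33 (0.0178) and for Tgfbr2 Kin (0.028). These genes share only the libraries and their scaling with the members as far as this measure shows.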

How the data were processed

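RNA-seq counts of 3 WT and 3 Rnf20 knockout libraries were used. The authors aligned paired-end reads of stranded poly(A) libraries to GRCm38/mm10 with HISAT2 2.1.0. They deposited raw counts per gene with gene lengths, and the counting program is not given in the sources used here. The authors deposited FPKM values from Cufflinks 2.1.1, used for the FPKM threshold and 1 alternative. A table of the authors also held an adjusted p-value (FDR) and a log2 fold change per gene, which were not used.

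Counts were filtered with filterByExpr, scaled by TMM and compared with the quasi-likelihood test of edgeR 4.0.16 in R 4.3.3 without covariates, on 13386 genes with Benjamini-Hochberg adjustment. The standard error was taken as |log2 fold change| over the root of F, and 95% intervals use the t quantile at edgeR's degrees of freedom. Log2 CPM used a prior count of 2. The test was tested on simulated counts. DESeq2 1.42.0 was an alternative, as were RLE scaling, library size only, other filters, the replicate number as a block, a term for libraries without Ddx3y counts, an adjusted p under 0.01, and each library left out.

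Positions and exon overlaps came from GENCODE M21 (GRCm38) and promoters from RefSeq. Genes named are Rnf20 and Rnf40, the 9 members, from each list up to 4 passing genes in each direction with the largest change and no overlap between genotypes, Fst, and the gene most like each member. Outside this rule, Ddx3y, the cell type markers named, Ltbp1, Ltbp3, Itgb3, Itgb5, Itgb6, Itgb8, Smad2, Smad3, Smad4, Usp4, Usp15, Acta2, Pmepa1, Tagln, Col1a1, Postn, Fn1 and Tgfbi were named after their values were seen. A gene of the target list, included in the counts, is not reported here by name. The members and lists were chosen with earlier results of these data known. The same-numbered WT and knockout libraries are described as paired nowhere in the sources. In these libraries 3 counts equal 0.142 to 0.143 CPM, a floor that covers counting error only, and the lowest count of a member in any library was 565.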

Additional observations from a re-analysis of the deposited data

How the results depend on the processing

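Knockout replicate 3 and the small number of libraries limit these results. With a term for the libraries without Ddx3y counts beside the genotype, 0 members rose and 0 fell (4 of the 9 had an unadjusted p under 0.05), and of the pathway genes 4 rose (Cdkn1a, Ctgf, Itgb1 and Thbs1) and 0 fell (21 and 6 at an unadjusted p under 0.05), in an edgeR fit in which 0.814% of all genes passed. With an adjusted p under 0.01, 1 member rose, 0 fell, and 13 pathway genes rose and 2 fell. The number of members that fell was 2 with library size only and 2 with DESeq2, which called 1 member (Inhba) by the thresholds of the study. With each library left out, 1 to 3 members rose, 0 to 2 fell and 0 to 1 passed the thresholds of the study, while 12 to 37 pathway genes rose (12 without WT replicate 3) and 2 to 16 fell (2 without WT replicate 3, 16 without knockout replicate 3). Where 0 fell, without WT replicate 2 or 3, 1 and 2 members were lower at an unadjusted p under 0.05. Leaving out a library also leaves fewer degrees of freedom. Over all genes, 14.3%, 11.9% and 10.3% passed without WT replicates 1, 2 and 3, against 33.0% with all libraries. Without knockout replicates 1, 2 and 3 the shares were 27.7%, 24% and 48.1%.

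The log2 fold change of Tgfb3 changed sign with library size only (-0.0589), without a filter on counts (-0.0080) and under the replicate block (-0.0070), and ranged from -0.0805 to 0.127 with each library left out. That of Tgfb1 ranged from -0.0199 without knockout replicate 3 to 0.278. The difference in share of Tgfb1 ranged from -0.331 percentage points without knockout replicate 3 to 6.74, and that of Tgfb3 from -0.142 without knockout replicate 1 to 4.92. Inhba, Smad7 and Tgfbr3 kept their direction in all 13 alternatives of the test. With each library left out, their adjusted p-values from edgeR were 9.2e-07 to 0.0621, 0.000381 to 0.0412 and 1.85e-05 to 0.0522. With library size only, the median log2 fold change of all genes was -0.06. The replicate block changed no call among the members (Inhba 1.77 with an adjusted p of 0.0295, Smad7 0.64 with 0.0251, Tgfbr3 -0.59 with 0.0312 from edgeR). The deviations of same-numbered libraries from their genotype means correlated at -0.0656, 0.0366 and 0.0109 over genes. With 3 libraries per genotype and knockout replicate 3 standing apart, these values cannot settle whether the libraries are paired.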
